A study of Mus musculus with 34 samples.

Results

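Liver tumors with 1 floxed Arid1a allele and Cre, called Het, were compared with liver tumors with floxed Arid1a and no Cre, called WT, all driven by MYC and all on a mixed strain background. The 16 libraries, 8 Het and 8 WT, were taken by the genotype and strain in their labels and make up 16 of the 34 libraries of the series. WT mice had the genotype LAP-tta-Arid1aflfl;TRE-MYC and Het mice LAP-tta-Arid1afl/+;Alb-cre;TRE-MYC, so that both groups carry the MYC transgene and at least 1 floxed allele, and Cre moves with genotype. Mice of both groups were about 90 days old, on a mix of C57/B6, 129 and FVB, and their tumors were taken at death after doxycycline had been withdrawn. The remaining libraries are tumors on a pure FVB background, used here as a side-by-side look-up, and Rag1-/- livers given adenovirus, not used here.

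ARID1A is a DNA-binding subunit of the BAF form of SWI/SNF, an ATP-driven complex that slides and evicts nucleosomes and so opens enhancers and promoters. It is among the chromatin genes most often mutated in human cancers, liver cancer included. In the mouse model a hepatocyte promoter drives the tTA activator, which turns on a MYC transgene once doxycycline is absent, and MYC raises growth, ribosome production and cell division. Alb-cre recombines in hepatocytes and cells derived from them, so vessels, macrophages and other cells in a tumor keep their Arid1a copies, and no group had Cre without a floxed allele. The labels do not say that each library came from a separate mouse, and p-values then measure only the spread between these samples.

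Levels are CPM, read counts scaled to the same total in every library,, and differences are log2 fold changes, Het minus WT, on the log2(CPM + 0.5) scale with their standard errors (SE). Depth was 2280000 to 5280000 reads per library, which makes genes under a few CPM imprecise. Mean depth was 3830000 reads in WT and 4100000 in Het (exact permutation p = 0.543, two-sided), and mean mitochondrial RNA was 0.434% and 0.385% (exact permutation p = 0.295). The mitochondrial share was highest in the shallowest library, WT 2 (0.618%), and lowest in the deepest, Het 6 (0.311%), so it is no separate check. Apob, C3, Fn1, Igf2 and Gm26917, the genes with the highest mean CPM, were also highest in WT 2, though only Igf2 was lowest in Het 6. Igf2 was at 1794 CPM in WT 2 and 780 CPM in Het 6, and H19 at 935 and 379 CPM. In abundant genes, CPM may thus carry library depth as well as expression, and whether their levels follow depth was not tested. All 12 hepatocyte markers of the list were measured, and their summed level was 5960 to 12400 CPM in WT and 3140 to 7150 in Het. On the first 2 principal components (22.8% and 15.6% of the variance), WT 2 stood apart on the first and Het 5 on the second. Libraries are named here by group and replicate number.

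Arid1a itself was at 314 to 490 CPM in WT libraries (median 349) and at 250 to 330 CPM in Het libraries (median 260). The ranges overlapped because Het 6, at 330 CPM, lay above the lowest WT libraries, while the other 7 Het libraries lay below all 8 WT libraries. The log2 fold change was -0.41 ± 0.09 SE which over the whole table did not reach the threshold (adjusted p = 0.083). The gene lies at chromosome 4, 133679008 to 133756769 on the minus strand (GRCm38). Reads were counted over the whole gene, no label names the deleted exons, and cells without Cre add their own reads.

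Of 17552 genes with a mean of at least 0.5 CPM, among 46528 in the table, 28 passed an adjusted p of 0.05 (0.16% of those tested), 7 higher in Het (0.0399%) and 21 lower (0.12%). Over all tested genes, 9847 were higher and 7705 lower, with a median log2 fold change of 0.05, yet only 205 were at least 2-fold higher against 688 at least 2-fold lower, and 10 were at least 4-fold higher against 151 at least 4-fold lower. Of the 28 that passed, 16 were past 4-fold. Of the 28, 27 are protein coding, and the exception, Gm6420, is of the annotation class TEC, a transcript still to be checked by experiment. The number that passed was unstable to single libraries, from 8 without Het 1 or without Het 6 to 138 without Het 2.

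**Figure D1:**
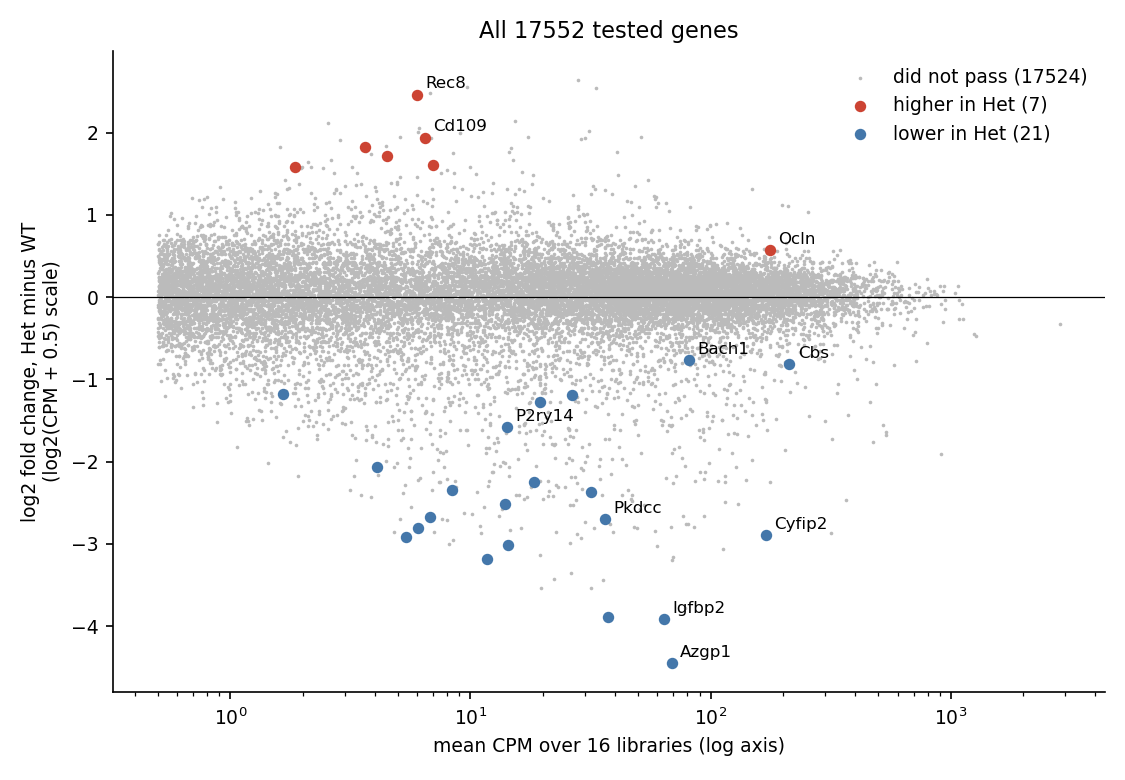
Log2 fold change, Het minus WT, against mean CPM over the 16 libraries (log axis) for each of the 17552 tested genes; coloured points are the 28 genes that passed an adjusted p of 0.05. The 21 lower genes reach down to Azgp1 at -4.45 and the 7 higher genes up to Rec8 at 2.46, and the cloud of other genes reaches further below 0 than above it.

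Cyfip2, Pkdcc and P2ry14 had the smallest p-values of the whole comparison, and in each of them every Het library lay below every WT library. Cyfip2 encodes a subunit of the WAVE complex, which drives branched actin assembly, and Cyfip2 was at 190 to 395 CPM in WT (median 295) and at 15.9 to 104 CPM in Het (median 31.4). It fell by 2.89 ± 0.33 SE on the log2 scale (adjusted p = 0.000662). Het 7, Het 5 and Het 1 were the highest Het libraries, and the other 5 lay below them. Pkdcc, a secreted kinase that phosphorylates tyrosines of extracellular proteins, was at 33.3 to 88.3 CPM in WT (median 65.7) and at 5.92 to 23.8 CPM in Het (median 7.17). Pkdcc fell by 2.70 ± 0.26 SE (adjusted p = 0.000108), the smallest p of the table. P2ry14, a receptor for UDP-sugars, was at 12.1 to 29.3 CPM in WT (median 21) and at 5.11 to 8.99 CPM in Het (median 6.11), and fell by 1.58 ± 0.19 SE (adjusted p = 0.00095). Its 8 Het libraries lay within a narrow band, unlike those of Cyfip2.

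The promoters of these 3 genes are shown because the genes had the clearest differences of the comparison. Each runs from 250 bases before to 50 bases after the first RefSeq start listed for the gene (GRCm38.p6), 5′ to 3′ on the gene's strand, with capitals for any match, on either strand, to the MYC E-box CACGTG, the AP-1 motif TGANTCA or the GC box GGGCGG. The Cyfip2 promoter is chr11:46312309-46312608, minus strand, that of Pkdcc chr17:83215033-83215332, plus strand, and that of P2ry14 chr3:59153443-59153742, minus strand.
Cyfip2: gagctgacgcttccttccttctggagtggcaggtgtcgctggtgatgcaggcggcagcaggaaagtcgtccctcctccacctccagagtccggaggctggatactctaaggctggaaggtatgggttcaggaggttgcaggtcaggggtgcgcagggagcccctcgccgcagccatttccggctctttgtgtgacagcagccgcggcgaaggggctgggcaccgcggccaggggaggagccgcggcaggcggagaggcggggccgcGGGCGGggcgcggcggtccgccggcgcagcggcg
Pkdcc: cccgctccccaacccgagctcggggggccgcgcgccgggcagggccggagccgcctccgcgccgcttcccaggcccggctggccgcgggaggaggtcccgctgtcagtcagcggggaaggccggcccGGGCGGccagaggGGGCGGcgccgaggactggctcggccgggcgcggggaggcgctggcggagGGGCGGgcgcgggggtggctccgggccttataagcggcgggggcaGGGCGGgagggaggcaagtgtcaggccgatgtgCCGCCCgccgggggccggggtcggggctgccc
P2ry14: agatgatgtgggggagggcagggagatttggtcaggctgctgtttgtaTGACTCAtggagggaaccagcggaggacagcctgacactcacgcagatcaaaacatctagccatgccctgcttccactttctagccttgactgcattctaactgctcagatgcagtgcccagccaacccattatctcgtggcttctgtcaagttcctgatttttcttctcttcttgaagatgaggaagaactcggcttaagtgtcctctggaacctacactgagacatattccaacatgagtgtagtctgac
None of the 3 windows holds the E-box. The Cyfip2 window holds 1 GC box, the Pkdcc window 5 and the P2ry14 window 1 AP-1 motif and no GC box. In GC content the windows ran from 49.3% in P2ry14 to 70.7% in Cyfip2 and 82.7% in Pkdcc, beside a median of 52.7% over 27025 promoters. Of the 28 genes, 22 had a promoter in the RefSeq table, and among those 4 (18.2%) held the E-box, beside 7.24% of all promoters, 2 (9.09%) the AP-1 motif, beside 7.93%, and 12 (54.5%) the GC box, beside 35.9%. The 4 with the E-box were D16Ertd472e, Igfbp2, Tuba8 and Cbs. The 22 promoters had a median GC content of 63.7%, above the 52.7% of all 27025, which were not limited to the tested genes. None of the 3 motifs contains another, and a match is a description of letters, not a site.

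Other genes of the cytoskeleton and of signalling also fell. Tuba8, an alpha-tubulin, was at 3.08 to 14.3 CPM in WT (median 5.83) and at 0 to 2.94 in Het (median 1.32), and fell by 2.07 ± 0.37 SE (adjusted p = 0.0256). Its groups did not overlap, but Tuba8 shares exon positions with a gene on the opposite strand, Gm15856, and no label says whether the counting used strand. Dmpk, the kinase whose human gene carries the myotonic dystrophy repeat, was at 29.1 to 51.7 CPM in WT (median 35.6) and at 8.38 to 23.4 in Het (median 16.9), without overlap (-1.19 ± 0.19 SE, adjusted p = 0.014). Rundc3b, a RUN-domain protein, was at 6.16 to 32.8 CPM in WT (median 21.5) and at 0.495 to 12.7 in Het (median 1.03), a difference of -3.18 ± 0.46 SE (adjusted p = 0.00679). The overlap came from Het 2 at 12.7 CPM, and the next highest Het library was under the lowest WT library. Arhgef19, a guanine nucleotide exchange factor, was at 1.95 to 20.3 CPM in WT (median 15.2) and at 0.613 to 5.73 in Het (median 2.40), a difference of -2.35 ± 0.45 SE (adjusted p = 0.0400). Here the overlap came from a WT library, WT 7 at 1.95 CPM.

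Genes of liver metabolism and secreted liver proteins included the deepest falls. Azgp1, which encodes zinc-alpha-2-glycoprotein, a secreted protein that promotes fat breakdown, was at 6.73 to 271 CPM in WT (median 129) and at 0.444 to 32.1 in Het (median 2.62), a fall of 4.45 ± 0.76 SE on the log2 scale (adjusted p = 0.0256). Igfbp2, a secreted carrier of insulin-like growth factors, was at 12.3 to 204 CPM in WT (median 119) and at 0.741 to 34.0 in Het (median 6.19), and fell by 3.91 ± 0.66 SE (adjusted p = 0.0256). Sec14l4, a lipid-binding protein of the SEC14 family, was at 15.4 to 149 CPM in WT (median 53.6) and at 0.495 to 85.8 in Het (median 2.28), and fell by 3.89 ± 0.71 SE (adjusted p = 0.0279). In all 3 the groups overlapped, in Igfbp2 through WT 7, in Azgp1 through Het 2, and in Sec14l4 through Het 2, whose 85.8 CPM lay above most WT libraries. For Azgp1, WT 7 at 6.73 CPM was far below the other WT libraries but above every Het library except Het 2. Rbp2, a cellular retinol-binding protein, was at 6.57 to 56.7 CPM in WT (median 15.8) and at 0.189 to 11.2 in Het (median 2.21; -3.01 ± 0.58 SE, adjusted p = 0.0404). Slc22a8, an organic anion transporter, was at 6.78 to 60.4 CPM in WT (median 18.6) and at 0.932 to 8.85 in Het (median 3.07; -2.52 ± 0.43 SE, adjusted p = 0.0256). The groups of both genes overlapped at their edges.

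Enzymes and a matrix protein also fell. Cbs, the first enzyme of the pathway from homocysteine to cysteine, was at 206 to 337 CPM in WT (median 259) and at 90.1 to 220 in Het (median 164), a difference of -0.81 ± 0.16 SE (adjusted p = 0.0466). Aspdh, named as an aspartate dehydrogenase, was at 19.7 to 40.4 CPM in WT (median 28) and at 5.96 to 16.9 in Het (median 12), a difference of -1.28 ± 0.20 SE (adjusted p = 0.0131). The Aspdh groups did not overlap, while for Cbs the highest Het library, Het 2, lay inside the WT range. St3gal5, the sialyltransferase that makes the ganglioside GM3, was at 15.7 to 111 CPM in WT (median 46.2) and at 2.25 to 19.7 in Het (median 8.65; -2.37 ± 0.45 SE, adjusted p = 0.0404). Chad, a leucine-rich cartilage matrix protein, was at 2.61 to 28 CPM in WT (median 8.93) and at 0 to 2.89 in Het (median 0.877; -2.80 ± 0.43 SE, adjusted p = 0.0107). Both overlapped at their edges.

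Cd163, Chil3 and a transcription factor were also among the falls. Cd163, the macrophage receptor for haptoglobin-bound hemoglobin, was at 9.27 to 103 CPM in WT (median 21.1) and at 1.23 to 8.58 in Het (median 5.10), without overlap (-2.25 ± 0.41 SE, adjusted p = 0.0320). Chil3, a chitinase-like protein, was at 1.39 to 30.8 CPM in WT (median 8.49) and at 0 to 2.43 in Het (median 0.529; -2.92 ± 0.51 SE, adjusted p = 0.0256), and its closest copies in the genome make its counts uncertain. It did not follow Cd163 within WT, since WT 2, the highest in Cd163, was at 1.75 CPM in Chil3. Of 12 Kupffer cell and macrophage markers, Cd163 included, 10 were lower in Het. Their summed level was 599 to 1690 CPM in WT and 473 to 998 in Het, with no marker at 0 in every library. Their part in the result was not tested. In bulk tissue, fewer cells of a type and less RNA per cell cannot be told apart. Bach1, a heme-regulated repressor of antioxidant genes, was at 75.1 to 146 CPM in WT (median 99.8) and at 44.3 to 71.5 in Het (median 64.1), and fell by 0.77 ± 0.15 SE (adjusted p = 0.0480). All 8 Het libraries lay below all 8 WT libraries for Bach1. D16Ertd472e, of unassigned function, was at 3.96 to 24.3 CPM in WT (median 11.3) and at 0.569 to 2.73 in Het (median 1.06; -2.67 ± 0.39 SE, adjusted p = 0.00789). Gm6420 was at 1.51 to 3.66 CPM in WT (median 2.56) and at 0.310 to 1.10 in Het (median 0.892; -1.18 ± 0.21 SE, adjusted p = 0.0256). Neither overlapped between groups.

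The 7 genes that rose were mostly at a few CPM and several encode membrane proteins. Ocln, or occludin, a strand protein of tight junctions, was the abundant exception, at 102 to 180 CPM in WT (median 140) and at 171 to 260 in Het (median 209), and rose by 0.57 ± 0.11 SE (adjusted p = 0.0429). Its ranges overlapped slightly. Rec8, a cohesin subunit of meiosis, was at 0.248 to 6.01 CPM in WT (median 0.810) and at 3.96 to 26.5 in Het (median 7.68), and rose by 2.46 ± 0.46 SE (adjusted p = 0.0330). Cd109, a surface protein that binds TGF-beta, was at 0.505 to 4.46 CPM in WT (median 2.39) and at 4.74 to 30.3 in Het (median 8.33), and rose by 1.94 ± 0.37 SE (adjusted p = 0.0404). Pcdh19, a protocadherin of cell adhesion, was at 0.647 to 3.41 CPM in WT (median 1.99) and at 3.69 to 12.7 in Het (median 6.54), and rose by 1.71 ± 0.30 SE (adjusted p = 0.0256). Cd109 and Pcdh19 did not overlap between groups, and Pcdh19 shares exon positions with the opposite-strand gene Gm26851. Aoc3, an amine oxidase of vessels and fat, was at 0.248 to 2.78 CPM in WT (median 1.11) and at 1.97 to 10.9 in Het (median 5.23; 1.82 ± 0.33 SE, adjusted p = 0.0272). Piezo2, a mechanically gated channel, was at 1.30 to 6.21 CPM in WT (median 3.45) and at 4.54 to 15.2 in Het (median 10.7; 1.60 ± 0.28 SE, adjusted p = 0.0256). Tusc5, known from fat cells, was at 0.197 to 1.08 CPM in WT (median 0.661) and at 0.853 to 5.96 in Het (median 2.80; 1.58 ± 0.28 SE, adjusted p = 0.0256). In Aoc3, Piezo2 and Tusc5 a single Het library, Het 8, lay inside the WT range.

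**Figure D2:**
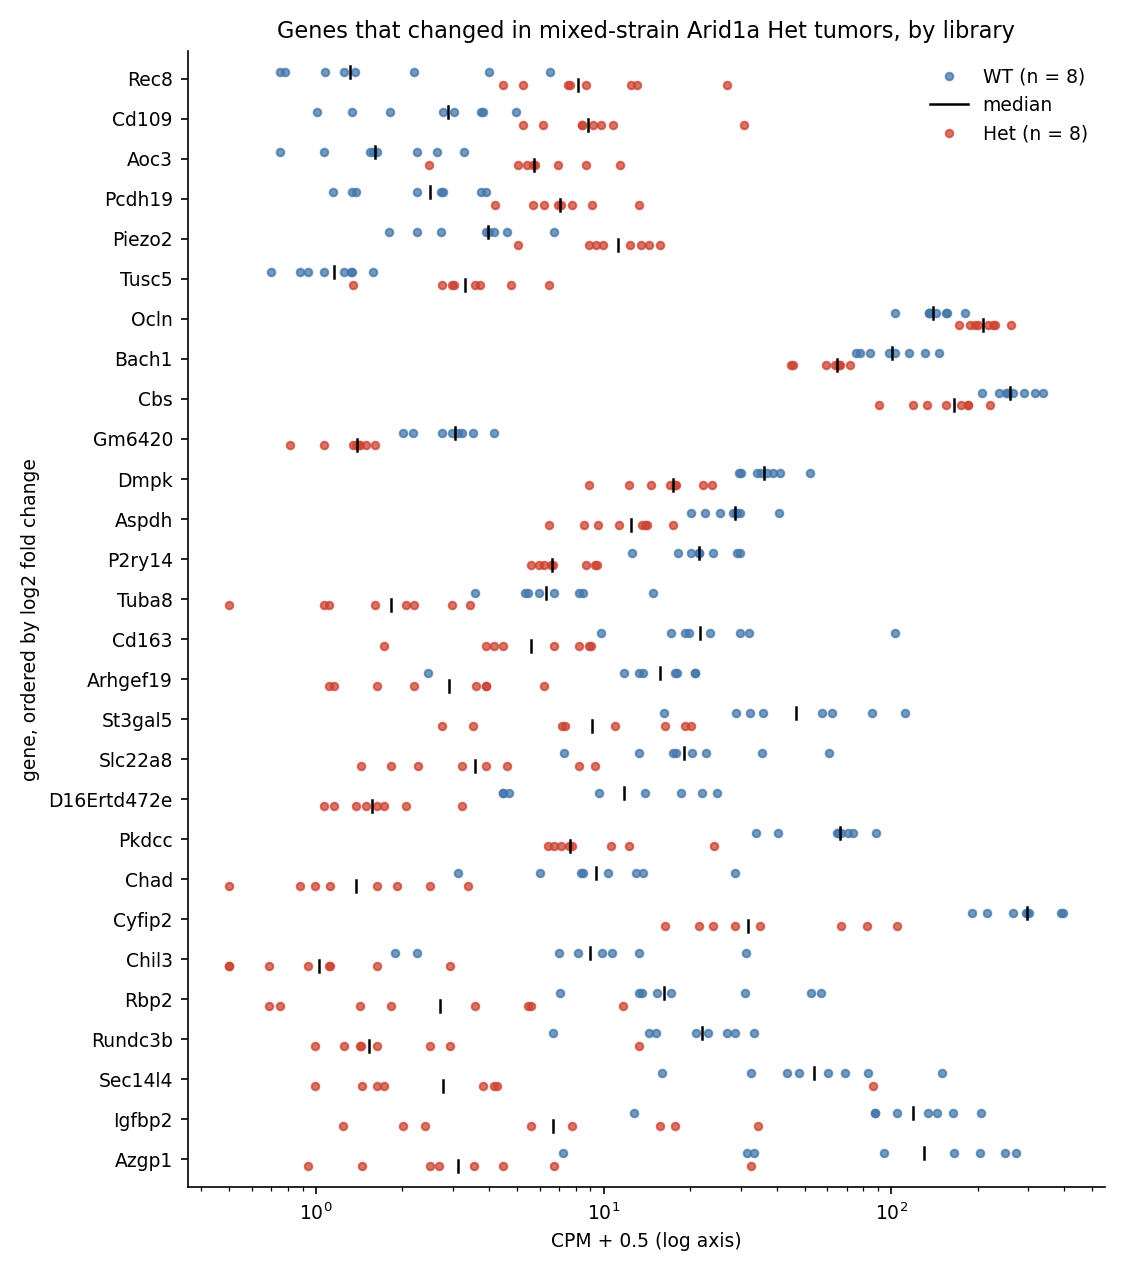
CPM + 0.5 (log axis) of each of the 28 genes in every library, WT in blue above and Het in red below on each line, with the median of each group as a black bar; genes are ordered by log2 fold change. In 12 of the 28 genes, among them Cyfip2, Pkdcc and P2ry14, no Het point lies inside the WT range, while in 16, such as Sec14l4 and Igfbp2, at least 1 does.

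Of the 28 genes, 8 passed whichever of the 16 libraries was left out: Pkdcc, Cyfip2, P2ry14, Rundc3b, D16Ertd472e, Chad, Aspdh and Dmpk. All 8 were lower in Het. They lie on chromosomes 17 (83215292 to 83225070), 11 (46193850 to 46312859), 3 (59113855 to 59153618), 5 (8490334 to 8622952), 16 (78540338 to 78576708), 11 (94565047 to 94569127), 7 (44465391 to 44467758) and 7 (19083849 to 19093821), in that order. At the other end, Cbs passed in 2 and Bach1 in 3 of the 16. No gene of the 28 changed direction under any of the 33 alternatives. Libraries differed in how well they matched their group: Het 2 lay nearer the WT mean in 9 of the 28 genes and WT 7 nearer the Het mean in 7, against 0 to 4 in the other 14 libraries.

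A count of genes whose groups do not overlap gave 24, 10 higher in Het (0.057% of those tested) and 14 lower (0.0798%), of which 12 had also passed. Of the other 12, 8 were higher in Het, mostly by small differences. Ampd2, an AMP deaminase of purine metabolism, was at 65.7 to 92.1 CPM in WT (median 81.4) and at 94.7 to 110 in Het (median 102; 0.38 ± 0.09 SE, adjusted p = 0.0913). Anapc7, a subunit of the anaphase-promoting complex, was at 51.3 to 88.3 CPM in WT (median 77.7) and at 90.8 to 125 in Het (median 107; 0.50 ± 0.11 SE, adjusted p = 0.0824). Wdr62, a spindle pole protein, was at 7.75 to 20.1 CPM in WT (median 13.1) and at 20.7 to 27.2 in Het (median 23.7; 0.79 ± 0.16 SE, adjusted p = 0.0660). Noc3l of ribosome assembly (0.53), Thoc5 of mRNA export (0.41), Snapc2 of small nuclear RNA transcription (0.60), Ggps1 of isoprenoid synthesis (0.76) and the zinc finger gene Zfp934 (0.91) had adjusted p-values of 0.0798 to 0.137. Ggps1, Wdr62 and Ampd2 share exon positions with opposite-strand genes. The 4 lower ones were Aspg, an asparaginase (-2.79 ± 0.70 SE, adjusted p = 0.111), the apolipoprotein Apoc4 (-1.82), the antisense gene Rapgef4os3 (-1.28) and the small GTPase Rasl11b (-0.59).

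Just outside the threshold were 5 genes at adjusted p-values of 0.0542 to 0.0648. Sdc2, a heparan sulfate proteoglycan, was at 55.1 to 217 CPM in WT (median 114) and at 7.57 to 78.9 in Het (median 23.4; -2.05 ± 0.41 SE). Sccpdh, named as a saccharopine dehydrogenase-like protein, was the higher one, at 7.94 to 19 CPM in WT (median 11.6) and at 18.7 to 61.7 in Het (median 26.2; 1.17 ± 0.24 SE). The mitochondrial carbonic anhydrase Car5a (-2.86), the elastic fibre protein Emilin1 (-1.40) and the intermediate filament Prph (-2.02) were lower. All 5 overlapped between groups.

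The 28 genes were looked up in FVB tumors, 4 WT and 4 Het, which share no library with the mixed-strain set. Age moves with genotype there, about 55 days in WT and 70 in Het, and that table was normalized separately, so values stand side by side. All 28 had values there. In 22 the direction was the same, 7 of the 7 higher and 15 of the 21 lower, beside 52.5% of the 15098 genes tested in both. Low FVB values are set to 0, where Chil3 lay in 4 of 4 Het libraries and 1 WT library, and Tusc5 in 3 of 4 WT libraries. Rbp2 lay at 0 in 3 WT and 2 Het libraries, and Tuba8 in 2 Het libraries. Chad, Arhgef19 and Pcdh19 each lay at 0 in 1 Het library. Directions of such genes are uncertain, and Tusc5 and Pcdh19 are among the 7. None of the 28 passed in FVB over all genes with limma (0.0248% of 16140 genes passed there), and 13 had an unadjusted p under 0.05, 11 of them in the same direction, beside 14.2% of all FVB genes. Ocln, at 0.57 in the mixed-strain tumors, was at 0.79 ± 0.17 SE in FVB (adjusted p = 0.0930). Igfbp2 was at -2.70 ± 0.80 SE, D16Ertd472e at -2.03 ± 0.72 SE, Sec14l4 at -1.99 ± 0.58 SE and Azgp1 at -1.93 ± 0.56 SE. The genes with the smallest p-values of the mixed-strain set were not among these. Pkdcc was at 0.10 ± 0.50 SE, Cyfip2 at -0.24 ± 1.05 SE and P2ry14 at -0.39 ± 0.34 SE in FVB. Like D16Ertd472e, other genes that passed whichever library was left out were lower in FVB. Rundc3b was at -1.04 ± 0.30 SE, Chad at -0.92 ± 0.37 SE, Dmpk at -0.69 ± 0.26 SE and Aspdh at -0.36 ± 0.29 SE. Slc22a8 lay the other way, at 1.42 ± 0.42 SE against -2.52, as did Gm6420 at 0.65 and Cd163 at 0.60. The difference between backgrounds was not tested.

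**Figure D3:**
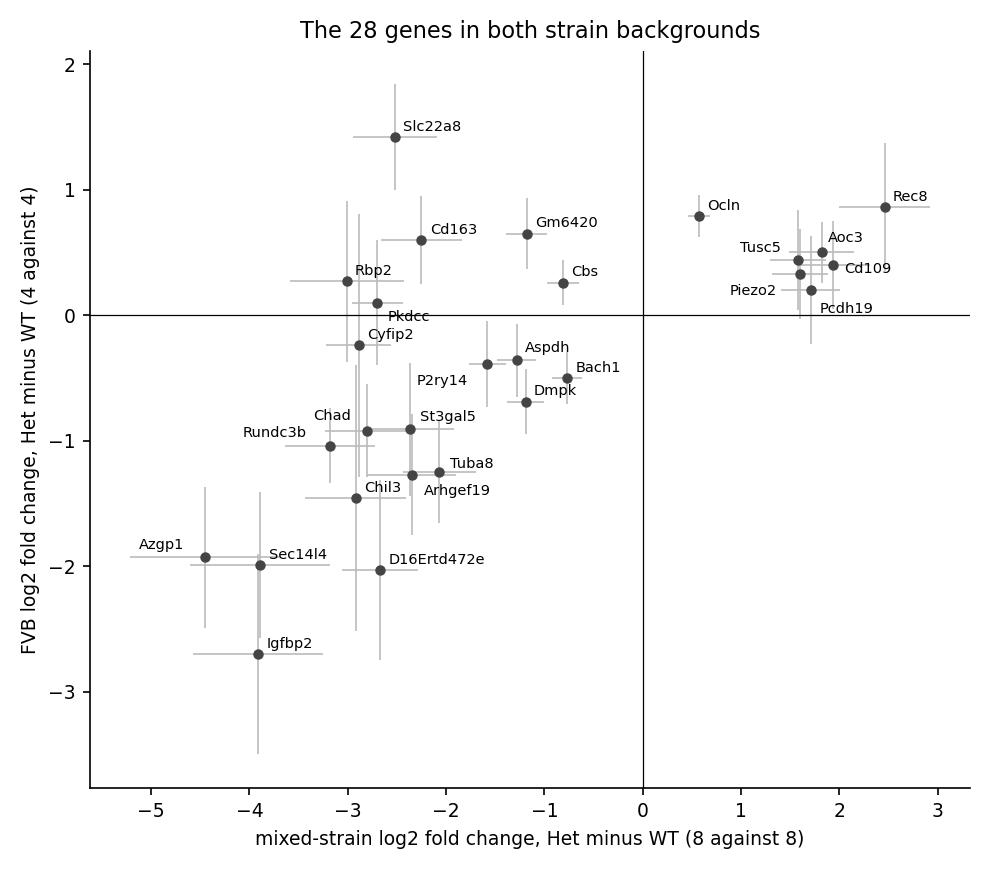
Log2 fold change, Het minus WT, of the 28 genes in the mixed-strain tumors (horizontal, 8 against 8 libraries) and in the FVB tumors (vertical, 4 against 4), with bars of 1 SE. The 7 higher genes all lie above 0 on both axes, and 6 lower genes, with Slc22a8 at 1.42 the farthest, lie above 0 in FVB.

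Beyond single genes, 33 lists of processes outside the usual liver pathways were counted. Nuclear pore genes, whose products form the channel between nucleus and cytoplasm, were higher in 23 of 23 members, 18 of them at an unadjusted p under 0.05, with a median of 0.35 beside 0.05 for all genes, where 1455 of 17552 were higher at that p. None passed over all genes (limma), and the smallest p-values were those of Nup93, a scaffold nucleoporin (0.67 ± 0.17 SE, adjusted p = 0.113), and Nup133 of the outer ring (0.59 ± 0.19 SE, adjusted p = 0.175). Nup93 was at 38.1 to 85.2 CPM in WT (median 60.9) and at 73.5 to 151 in Het (median 91.4), with overlap. DNA repair genes were higher in 32 of 33, 14 at an unadjusted p under 0.05, with a median of 0.34. Rad50, of the complex that senses broken ends, was at 47.8 to 93.4 CPM in WT (median 81.1) and at 82.3 to 152 in Het (median 121; 0.56 ± 0.15 SE, adjusted p = 0.133). Brca1, of homologous recombination, was at 0.51 ± 0.15 SE (adjusted p = 0.152), and Xpa of excision repair was the lower one, at -0.12. In FVB tumors the median of the nuclear pore list was -0.04 and that of the repair list 0.06.

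Nuclear genes of other kinds lay higher by less. Polycomb, trithorax and histone modifier genes were higher in 24 of 30, with a median of 0.18, and their smallest p-values were those of the histone methyltransferase Ezh1 (0.46 ± 0.14 SE, adjusted p = 0.15) and of Bmi1 (0.79 ± 0.26 SE, adjusted p = 0.174). Splicing genes were higher in 26 of 31, with a median of 0.13, led by Sf3b3 of the spliceosome (0.45 ± 0.12 SE, adjusted p = 0.123) and Srsf6 (0.51 ± 0.17 SE, adjusted p = 0.185). Srsf6, on chromosome 2, was at 643 CPM in Het 5 and 533 CPM in Het 8, beside 297 to 387 CPM in the other Het libraries. DNA methylation genes were higher in 11 of 14 (median 0.08), with the maintenance methyltransferase Dnmt1 at 0.41 ± 0.14 SE. Translation factors (median 0.05), mitochondrial ribosomal proteins (0.01) and autophagy and lysosome genes (0.01) lay at the median of all genes or below it. In these 6 lists 0 members passed over all genes (limma). From 0 to 5 members of each had an unadjusted p under 0.05, beside 2772 of 17552 over all tested genes.

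In the lists that lay lower, members spread widely. Enzymes of NAD and vitamin cofactor metabolism were lower in 27 of 30, 12 at an unadjusted p under 0.05, with a median of -0.36. Over all genes, 1317 of 17552 were lower at that p. Aspdh passed, and Pemt, which makes phosphatidylcholine by methylation, was at 84.6 to 185 CPM in WT (median 146) and at 5.87 to 121 in Het (median 23.1; -2.21 ± 0.52 SE, adjusted p = 0.0900). Scavenger receptors, which take up modified proteins, lipids and debris, were lower in 20 of 22, 11 at that p, beside the same 1317 of 17552, with a median of -0.60. Cd163 passed among them, and Stab2, the hyaluronan receptor of liver sinusoids, was at -1.54 ± 0.34 SE (adjusted p = 0.0798). Proteoglycans and matrix glycoproteins were lower in 24 of 29 (median -0.42), with Sdc2 and Emilin1 in front and Fbln1, a basement membrane protein, at 1.16. Their FVB median was -0.33, while those of cofactor enzymes and scavenger receptors were 0.02 and 0.02.

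ER chaperone and unfolded protein response genes were lower in 27 of 27, from -0.65 to -0.03, with a median of -0.14. Their summed level was 6210 to 9230 CPM in WT and 5070 to 7480 in Het, and their FVB median was 0.06. The part of library depth in so small a median shift of abundant genes was not tested. Edem1, which marks misfolded glycoproteins for removal, was at 173 to 376 CPM in WT (median 231) and at 105 to 214 in Het (median 169; -0.65 ± 0.20 SE, adjusted p = 0.16), and Dnajc3, a co-chaperone, was at -0.53 ± 0.17 SE (adjusted p = 0.171). Of the 27, 5 had an unadjusted p under 0.05, beside 1317 of 17552 genes lower at that p over all. Peroxisome assembly genes were lower in 18 of 26 (median -0.20) and imprinted genes in 20 of 24 (median -0.19), led by the growth-restraining adaptor Grb10 at 155 to 831 CPM in WT (median 604) and 16.5 to 571 in Het (median 122; -2.46 ± 0.65 SE, adjusted p = 0.123). Grb10 was at -2.34 ± 0.88 SE in FVB.

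The genes that passed were set beside the other members of their own families. The actin, WAVE and Arp2/3 list holds Cyfip2 at -2.89, yet 21 of its 25 members were higher, with a median of 0.15, such as Actr3 (0.19 ± 0.07 SE, adjusted p = 0.225) and Nckap1, another WAVE subunit (0.19 ± 0.08 SE, adjusted p = 0.285). Nckap1 was at 255 to 387 CPM in WT (median 319) and at 330 to 415 in Het (median 346). Of 15 tubulins, 10 were higher and Tuba8 passed as lower. Tight and gap junction genes were higher in 18 of 26 (median 0.16), with Ocln past the threshold and Tjp3 at 0.78 ± 0.26 SE, but Cldn1, a claudin of the same junctions, was at 68.6 to 241 CPM in WT (median 158) and at 8.92 to 159 in Het (median 53.5; -1.49 ± 0.50 SE, adjusted p = 0.185). Purinergic receptors and ectonucleotidases, taken as 1 list, were lower in 15 of 19 (median -0.20). In that list P2ry14 was past the threshold, and the adenosine receptors Adora1 and Adora2b were at -1.49 and 1.32. Cadherins and protocadherins were split, 14 of 22 higher with a median of 0.07, with Cdh2, N-cadherin, at -0.91 ± 0.27 SE (adjusted p = 0.157).

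Signalling and receptor lists held few members near the threshold. Of the TGF-beta and BMP list 27 of 40 were lower (median -0.14), with Cd109 past the threshold as higher and Gdf2, the circulating BMP9, at 0.248 to 23.3 CPM in WT (median 5.15) and 0 to 1.81 in Het (median 0.111; -2.40 ± 0.61 SE, adjusted p = 0.113). Jag2, a Notch ligand, was at 2.51 to 21.5 CPM in WT (median 10.6) and at 5.36 to 100 in Het (median 41.0; 1.92 ± 0.53 SE, adjusted p = 0.136), in a Notch and Hippo list with 15 of 27 members higher. Kit, a stem cell factor receptor, was at 1.05 ± 0.36 SE (adjusted p = 0.187) in the mixed-strain tumors and at 1.21 ± 0.28 SE in FVB (adjusted p = 0.0975). Fgfr2 was lower in both, at -1.97 ± 0.66 SE and at -1.72 ± 0.40 SE in FVB (adjusted p = 0.0975). Avpr1a, the vasopressin receptor of hepatocytes, was at -1.84 ± 0.46 SE (adjusted p = 0.111) and Atp2b2, a plasma membrane calcium pump, at -2.95 ± 0.74 SE (adjusted p = 0.111). The median of WNT genes was -0.31 and that of growth factor receptors -0.07, and both changed sign or reached 0 under some alternatives, as did 9 other lists of the 33.

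Genes that differ between male and female liver were mostly lower in both directions of bias. Male-biased genes were lower in 17 of 18 (median -1.05), with the P450 Cyp2d9 at -2.21 ± 0.59 SE (adjusted p = 0.128), and female-biased genes in 12 of 15 (median -1.06), with Cyp3a16 at -2.35 ± 0.59 SE (adjusted p = 0.111). Both genes belong to families of near-identical copies, so their counts are uncertain. All 16 libraries held Y chromosome RNA, with Ddx3y at 97.4 to 275 CPM. In FVB tumors the median was -1.26 for the male-biased and 0.01 for the female-biased list.

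**Figure D4:**
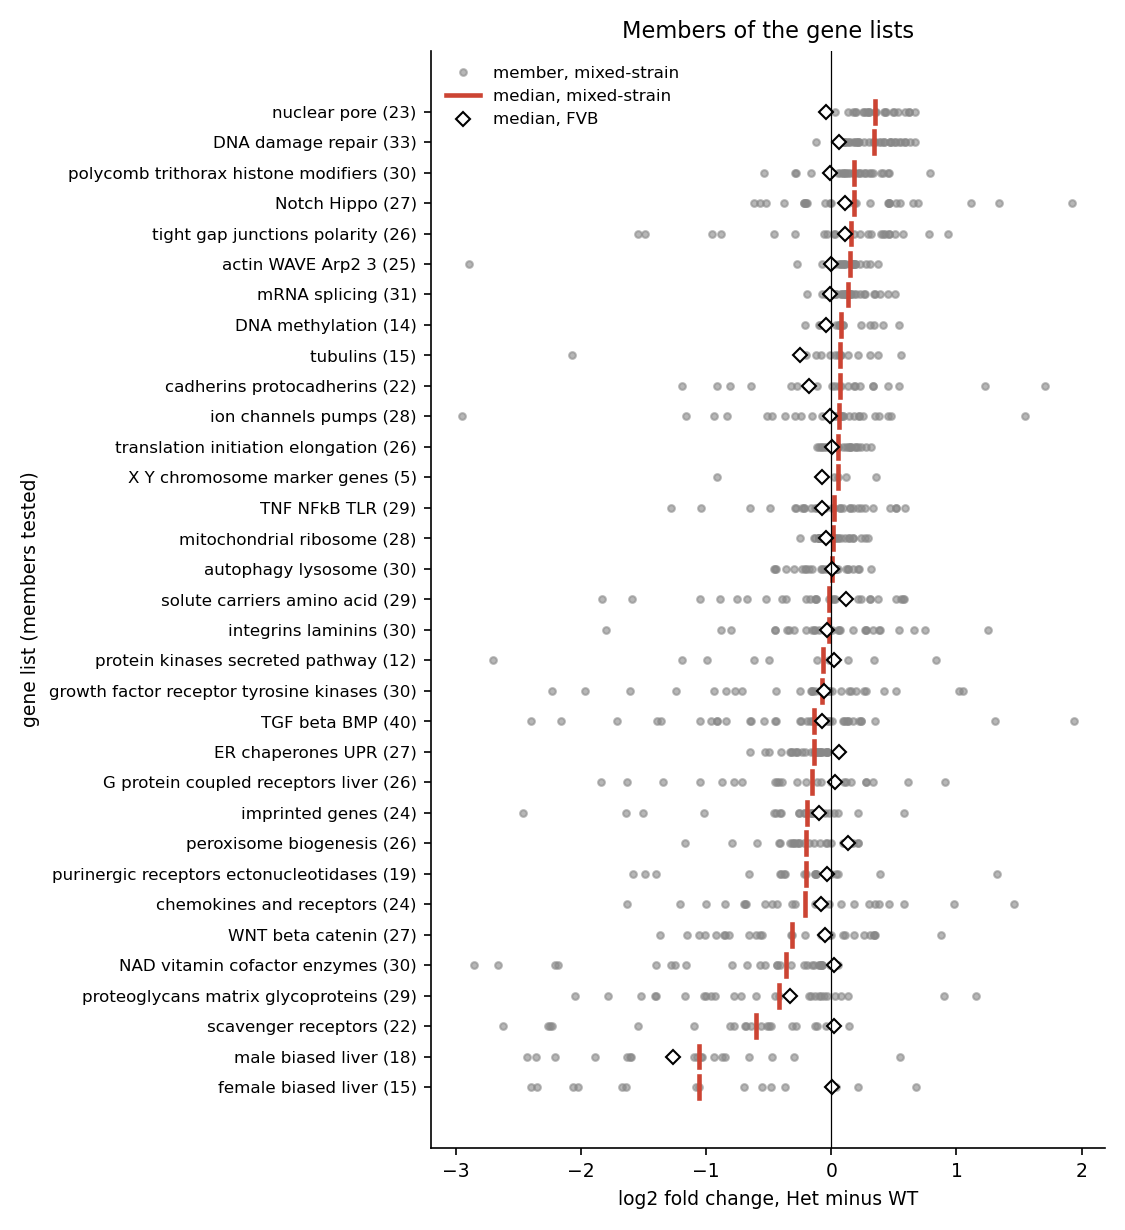
Log2 fold change, Het minus WT, of each tested member (grey points) of 33 gene lists in the mixed-strain tumors, with the list's median in red and its median in FVB tumors as an open diamond; the number of members is in brackets. Nuclear pore and DNA repair members lie almost wholly above 0 in a tight band (medians 0.35 and 0.34), while lower lists such as scavenger receptors (-0.60) spread over several units.

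Markers of other cell types moved with genotype to differing extents. Neutrophil markers were lower in 10 of 10, 7 at an unadjusted p under 0.05 (1317 of 17552 over all genes), with a median of -1.74 and a summed level of 15.4 to 197 CPM in WT (median 48.6) and 6.06 to 61.4 in Het (median 8.65). Endothelial markers were lower in 8 of 11 (median -0.81), with Vwf, von Willebrand factor, at 3.92 to 60.0 CPM in WT (median 21.1) and at 0.189 to 8.38 in Het (median 3.97; -2.40 ± 0.54 SE, adjusted p = 0.0824). The endothelial sum was 215 to 574 CPM in WT and 143 to 401 in Het. Hepatocyte markers were lower in 12 of 12 (median -0.30), with the urea cycle enzyme Cps1 at 916 to 2080 CPM in WT (median 1140) and at 39.5 to 1230 in Het (median 463; -1.91 ± 0.55 SE, adjusted p = 0.148). Stellate and fibroblast markers had 8 of 10 lower (median -0.43; sums 222 to 1330 in WT and 269 to 1130 in Het) and erythroid markers 8 of 8 (median -0.92; 20.4 to 357 and 6.44 to 322). T and NK cell (median 0.03), B and plasma cell (0.04) and dendritic (0.05) markers lay at the median of all genes. Of all these markers only Cd163 passed, and no marker of these lists was at 0 in every library. The part of cell makeup in the results above was not tested, nor that of library depth in abundant markers.

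Along the chromosomes, 5 of the 8 Het libraries held runs of neighbouring genes that stood above the other libraries. Each gene was set against its median over the 8 WT libraries, for genes with a mean of at least 5 CPM, and the stretches below were chosen after their values were seen, so they carry no test. On chromosome 2, from Ift52 to Sulf2 (163017354 to 166155663, 3.14 Mb, 39 genes), Het 5 had a median log2 deviation of 2.76, or 6.77-fold, with 36 of 39 genes at least 2-fold higher. Het 8 was at 1.77 there (3.40-fold, 32 of 39 genes) and Het 1 at 0.58 (1.5-fold), while the other 5 Het libraries lay from -0.13 to 0.14 and the WT libraries from -0.07 to 0.04. Het 5 was raised up to Sulf2, and Het 8 was also raised over the next stretch, from Prex1 to Zfp64 (166566342 to 168955587, 22 genes), at 1.59 with 19 of 22 genes at least 2-fold higher, where Het 1 was at 0.48 and Het 5 at 0.07. Further along, from Rae1 to Atp5e (173000117 to 174464105, 15 genes), Het 2 alone was high, at 1.51 (2.85-fold, 12 of 15 genes).

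The genes in these stretches include known regulators of growth. Stk4, a kinase of the Hippo pathway, was at 941 CPM in Het 5, 470 in Het 8 and 259 in Het 1, beside 108 to 159 in the other 5 Het libraries and 77.8 to 123 in WT. Ncoa3, a nuclear receptor coactivator, was at 878 CPM in Het 5, 421 in Het 8 and 236 in Het 1, beside 113 to 176 in WT. Mybl2, a cell cycle transcription factor, was at 808 CPM in Het 5 and 612 in Het 8, beside 43.0 to 196 in WT. Srsf6, named above with the splicing genes, lies shortly before Ift52 and was also highest in Het 5 and Het 8. Not all genes followed, since Hnf4a, a hepatocyte transcription factor inside the first stretch, was at 831 CPM in Het 5 and 825 in Het 8, within its WT range of 552 to 878. Rab22a, a GTPase of endosomes, was at 525 CPM in Het 2, beside 41.8 to 134 in the other Het libraries, and Stx16, a Golgi syntaxin, at 536 beside 58.7 to 157. None of the 76 genes of the 3 stretches passed the comparison of groups (limma). At an unadjusted p under 0.05 were 10 of 39, 4 of 22 and 2 of 15, beside 2772 of 17552 over all tested genes. None of the 28 genes that passed lies on chromosome 2.

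Chromosome 8 as a whole stood higher in 2 Het libraries. Over 629 genes the median log2 deviation was 0.35 in Het 1 (1.28-fold, 76.5% of genes higher) and 0.42 in Het 6 (1.33-fold, 73.6% higher), while the other 14 libraries lay from -0.06 to 0.06. On the 19 other chromosomes, Y apart, the medians of all 16 libraries lay between -0.08 and 0.07. Genes named above lie there: Nup133 was at 310 CPM in Het 1 and 301 in Het 6, beside 140 to 206 in the other Het libraries, and Nup93, Sf3b3 and Snapc2 were also highest in these 2. The nuclear pore list was higher in 23 of 23 members without Het 1 (median 0.33) and without Het 6 (median 0.29). Without all 5 libraries named here, a set chosen after seeing the data, 23 of 23 were higher (median 0.29). The part of chromosome 8 in the list's difference was not tested. With those 5 left out, 8 WT against 3 Het libraries, 19 genes passed, 8 of them among the 28. Without WT 2 and Het 5, the libraries that stood apart, the nuclear pore list was higher in 22 of 23 (median 0.26). Its lowest median over the alternatives was 0.24, without WT 2 alone. The 12 FVB libraries lay from -0.01 to 0.04 on chromosome 8 and from -0.03 to 0.17 over the first stretch. DNA copy number was not measured here.

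**Figure D5:**
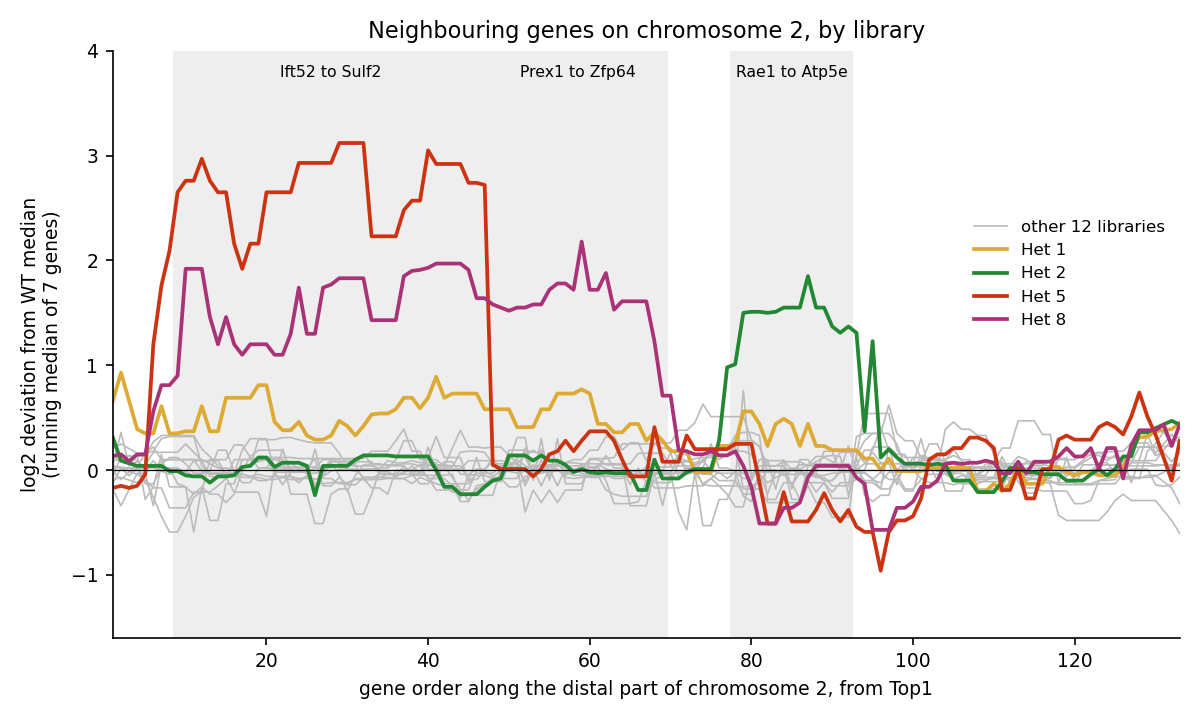
Log2 deviation from the WT median (running median of 7 genes) along the genes of distal chromosome 2, in order from Top1, for each library; the shaded bands are the 3 stretches. Het 5 lies highest over the first band (median 2.76) and drops at its end, Het 8 stays raised over the first and second bands (1.77 and 1.59), Het 1 less so (0.58 and 0.48), and Het 2 is raised over the third band (1.51).

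The floxed allele is linked to its neighbours on chromosome 4, so genes around Arid1a were counted apart. Within 2 Mb of the gene, 20 of 86 tested genes (23.3%) had an unadjusted p under 0.05, within 5 Mb 39 of 178 (21.9%) and within 20 Mb 86 of 506 (17%), beside 2772 of 17552 over all. Of the 86, 53 were higher and 31 lower, with a median of 0.07 beside 0.05 for all genes. None within 5 Mb passed, and Arhgef19, 7.53 Mb away at 141239499 to 141257564, was the nearest of the 28.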

How the data were processed

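Bulk RNA-seq of liver tumors was analysed from the table the authors deposited for the mixed-strain Het and WT mice. The table is labelled RPKM, but each library sums to 999553 to 999898 after undoing log2(value + 1), so the deposited values are log2(CPM + 1), given to 2 decimals; low values were whole reads within 0.1, which gave the depth. Per the submitters' processing notes the tools were Trim Galore, HISAT2, SAMtools and featureCounts on GRCm38/mm10, with versions and strand setting not given in the sources used here. CPM is not corrected for gene length, so levels of different genes were not compared. Values were rescaled to log2(CPM + 0.5), genes with a mean of at least 0.5 CPM were kept, and limma 3.58.1 (R 4.3.3; variance trend, two-sided, Benjamini-Hochberg threshold 0.05) compared 8 with 8 libraries without a block. FVB values, deposited as log2 CPM with low levels set to 0, were fitted apart, with 3 groups in 1 fit. No count test was run, because rounding leaves high values short of whole reads. The fit was tested on simulated data.

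Named were Arid1a, every gene past the threshold, the 5 with the smallest p outside it, the non-overlapping genes that missed it, up to 2 members of each gene list in each direction by p, 2 per marker list, and the most abundant and most variable genes; genes of the chromosome 2 and 8 stretches were chosen after their values were seen. Members and lists were chosen with earlier results of these data known. Positions come from GENCODE M21; Tusc5 has none, and symbols turned into dates (21 of the tested genes) are not named. Besides Tuba8 and Pcdh19, the named genes Car5a, Stab2, Nup133, Sf3b3, Xpa, Tjp3, Adora1 and Rab22a share exon positions with an opposite-strand gene and are uncertain. Alternatives covered the pseudocount, filter, scaling, variance model, covariates, pairing and libraries used. The labels' treatment text gives Het and Homo mice in the same words, so groups follow the genotype field. Same-numbered replicates did not deviate together.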

Additional observations from a re-analysis of the deposited data

Results flagged for a closer look

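In 20 of 136 groups of 8 libraries examined, the highest or lowest library stood apart from the nearest other by more than Dixon's 95% critical value allows (chance alone would give about 1 in 20 groups chosen without regard to their values). The 20 are not read against that rate, because the genes named for their variance ratio (Rab22a, Ttpal, Saa2, Iars and 2310057M21Rik below) and the chromosome 2 stretches were chosen for values that stood apart. WT 2 gave 5 of these, WT 7 and Het 2 gave 4 each, Het 5, Het 6 and Het 7 gave 2 each and Het 8 gave 1.

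In WT 2, Snapc2 (11 CPM), Anapc7 (51.4 CPM) and the isoleucyl-tRNA synthetase Iars (260.0 CPM) were the lowest of the WT libraries and stood apart, and Apoc4 (113 CPM) and the acute phase protein Saa2 (184 CPM) were the highest. In WT 7, Igfbp2 (12.3 CPM) and Arhgef19 (1.95 CPM) were the lowest, and Arid1a (490.0 CPM) and Rasl11b (14.2 CPM) the highest. Both Igfbp2 and Arhgef19 lay there among the Het values.

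In Het 2, Rundc3b (12.7 CPM), Sec14l4 (85.8 CPM) and Rab22a (525 CPM) were the highest Het values, and the Rae1 to Atp5e stretch had a median log2 deviation of 1.51. Het 5 was the highest Het library in Cd109 (30.3 CPM) and Ttpal (634 CPM), a gene of the Ift52 to Sulf2 stretch. Het 6 was the highest in Arid1a (330.0 CPM) and Zfp934 (5.68 CPM). Het 8 was the highest over the Prex1 to Zfp64 stretch, with a median log2 deviation of 1.59. In Het 7, 2310057M21Rik (23.1 CPM) was the lowest Het value, and the Y chromosome had a median log2 deviation of 0.84 over 4 genes.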

How the results depend on the processing

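None of the 28 genes changed direction under any of 33 alternatives, but their number moved. Beside 28 genes past the threshold, 14 passed with no filter on low values, 101 with array weights, 44 with Xist as a covariate, 1 in columns S1 to S10 of the table alone (5 against 5), 0 in columns S11 to S16 alone (3 against 3, limma, 1121 at an unadjusted p under 0.05) and 16 without WT 2 and Het 5 (14 among the 28; chosen after seeing the data). With the replicate number as a block 75 passed, 21 among the 28, but the numbers do not pair the libraries (correlations of deviations -0.12 to 0.24, with replicate 2 alone best matched by its own number). Leaving out 1 library gave 8 to 138 genes: 8 without Het 1 or Het 6, 9 without Het 3, 10 without WT 6 or WT 8, 11 without WT 1, 13 when WT 3 was left out, 14 for WT 5, 18 for Het 4, 48 for WT 7, 65 for Het 7 and 138 for Het 2. The 24 non-overlapping genes became 181 in S1 to S10 and 2125 in S11 to S16, where fewer libraries make separation easier. They became 45 without WT 2 and Het 5 and 404 without Het 1, 2, 5, 6 and 8, both chosen after seeing the data. Without 1 library there were 26 to 54, with 43 for WT 3, 41 for WT 7, 39 for Het 7 and 54 for Het 2. Restricting FVB to genes at a mean of 2 or more (log2 CPM) kept 18 of the genes, 14 of them in the same direction, beside 22 of 28. The causes were not tested. Arid1a had an adjusted p of 0.0459 to 0.718 over the alternatives. Depth of 2280000 to 5280000 reads limits genes of a few CPM.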

Other observations

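Y-linked genes did not move together within the Het libraries. Kdm5d, a histone demethylase, was at 3.47 CPM in Het 4 and 2.66 CPM in Het 6, beside 43.3 to 70.5 CPM in WT, while Ddx3y, an RNA helicase from the same arm, was at 127 and 117 CPM in those 2 libraries and at 99.4 to 190.0 CPM in WT. In Het 7 all 4 Y-linked genes of the set were the highest of the 16 libraries, with Kdm5d at 107, Ddx3y at 275, Uty at 127 and Eif2s3y at 116 CPM.

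Spread within groups differed from gene to gene. Hlf, a circadian PAR bZIP transcription factor, was at 83.4 to 132 CPM in WT (median 122) and at 2.46 to 176 CPM in Het (median 46.6), and its variance on the log2 scale was 70.5 times as large in Het. Aspg had a ratio of 131, with 65.3 to 94.7 CPM in WT and 0.376 to 49.9 CPM in Het. At the other end, the aspartyl-tRNA synthetase Dars was at 148 to 264 CPM in WT and at 216 to 231 CPM in Het, and Eif2b5, a translation initiation factor subunit, at 82.3 to 147 CPM in WT and at 137 to 147 CPM in Het. Bmp7, a secreted growth factor on distal chromosome 2, was at 72.5 CPM in Het 1, 77.2 CPM in Het 2 and 79.4 CPM in Het 4, but at 20.9 CPM in Het 5 and 5.50 CPM in Het 7, with the other Het libraries at 41.8 to 43.6 CPM, beside 7.46 to 37.6 CPM in WT. Slpi, a secreted protease inhibitor in the first stretch, was at 78.3 CPM in Het 5 and at 0.223 to 2.27 CPM in the other Het libraries.

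Lrat, the stellate cell enzyme that esterifies retinol, was at 0.840 to 27.6 CPM in the mixed-strain WT libraries (median 8.09) and at 0.310 to 2.97 CPM in Het (median 0.706), a difference of -2.20 ± 0.60 SE (adjusted p = 0.133). In FVB Lrat passed over all genes, at -2.50 ± 0.31 SE (adjusted p = 0.0234).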
